A study of Mus musculus with 18 samples.

Results

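The 6 arrays described here compared the kidney cortex of B6 mice (3 mice, called resistant to nephritis caused by antibodies against the glomerular basement membrane) with that of NZW mice (3 mice, called sensitive). They were chosen because 1 deposited table holds these arrays and no others, and they are 6 of the 18 arrays of the series. All the mice were 2 months old, of an inbred strain, and challenged with anti-GBM antibodies. The study asked which renal genes differ between strains that resist this challenge and strains that do not. Because none of the 6 mice was left unchallenged, a difference that was there before the challenge and a difference in the response to it cannot be told apart. The labels give no dose, no interval after the challenge, and no hour of collection. Each array is taken as 1 mouse, and the p-values measure the spread between these mice.

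In anti-GBM nephritis, antibodies bind type IV collagen of the glomerular filter, and complement, Fc receptors, and infiltrating leukocytes then damage the glomerulus and, downstream of it, the tubules. The cortex is made mostly of proximal tubules, which reabsorb sugars, amino acids, and phosphate and burn fatty acids for energy, and glomeruli are a small part of its RNA. A bulk measurement such as this sums all these cells, so fewer cells of a type and less RNA per cell cannot be told apart.

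The labelled tissue was checked against its defining markers. The proximal tubule genes Slc34a1, Lrp2, Slc5a2, Miox, and Kap, the thick ascending limb genes Umod and Slc12a1, and the distal tubule gene Slc12a3 were bright in all 6 mice. Slc34a1, the sodium-phosphate carrier of the proximal tubule, read 14.39, 14.27, and 14.57 in the B6 mice and 14.52, 14.63, and 14.74 in the NZW mice on the normalized log2 scale, on which 1 unit is a 2-fold difference and undetected probes lie near 5. The podocyte genes Nphs1 and Podxl and the renin gene Ren1 were detected in every mouse. Of the markers of other cells, Fabp4 (fat) was detected in no mouse. Adipoq, a hormone of fat cells, read 9.21 in B6 mouse 2 and 5.28 to 6.50 in the other mice, and the macrophage gene Cd68 read 10.42 in B6 mouse 2 and 8.58 to 8.91 in the others. Where leaving this mouse out moved a count of a list by over 1.5 times, the count without it stands beside it below. Aqp4 and Slc14a2, which mark the inner medulla, were lowest in NZW mouse 2 among the NZW mice (9.56 and 7.21, against 10.93 to 11.33 and 9.08 to 9.39). Their summed signals were 1311, 975, and 1183 in the B6 mice and 3210, 874, and 2454 in the NZW mice. Aqp4 read 9.08, 9.19, and 9.32 in B6 and was higher in NZW in limma's test (adjusted p = 0.0348). It did not pass when any mouse but NZW mouse 2 was left out. The other tested probe of Aqp4, at a B6 minus NZW difference of -0.18, did not pass. The part of inner medulla in the strain differences was not tested. Xist, which is made from the inactive X chromosome, was detected in all 6 mice, while Ddx3y, Eif2s3y, and Jarid1d of the Y chromosome were detected in none.

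The deposited signal is the mean brightness of the beads of a probe, before any normalization, with a detection p-value against negative control beads. Across arrays the median signal ran from 81.1 to 89.8, between 33.8% and 36.4% of its probes had a detection p of 0.05 or less, and a probe was read on a median of 36 to 37 beads. Over the tested probes, the 6 pairs of mice of the same strain correlated at 0.988 to 0.993 and the 9 pairs of mice of different strains at 0.955 to 0.962. The first principal component held 73.8% of the variance. The median spread between mice was an SD of 0.121 in B6 and 0.166 in NZW on the log2 scale.

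B6 and NZW cortex differed at many genes, and the largest differences were mostly toward higher signal in B6. Of 46632 probes, 16756 were detected in at least 3 of the 6 mice and tested, and 13779 of these (82.2%) were detected in all 6. In limma's test, 3157 of them (18.8%) passed a Benjamini-Hochberg adjusted p of 0.05, which is meant by a call below, and 1547 (9.23%) were called higher in B6 and 1610 (9.61%) higher in NZW. Counting the brightest probe of each symbol, 2531 of 13492 genes (18.8%) were called, 1276 (9.46%) higher in B6 and 1255 (9.3%) higher in NZW. The balance turned with size. Among called probes with a difference of at least 1 log2 unit, 621 (3.71%) were higher in B6 and 301 (1.8%) higher in NZW, and among genes 504 (3.74%) and 230 (1.7%). At 2 log2 units or more, the counts were 206 and 53, and at 4 or more, 31 and 5. No probe sequences were given, so the part of strain variants under the probes in these differences was not tested. The median difference of the tested probes was -0.04, close to no shift. The even split of the calls depended on the normalization, with 1351 higher in B6 and 2269 higher in NZW after scaling to the 75th percentile, and 1740 and 1252 under cyclic loess. The split also depended on the filter, with 1083 higher in B6 and 1438 higher in NZW when detection in all 6 arrays was required. Leaving out a B6 mouse left 1737 to 1887 calls, in part because a probe read in 1 strain alone is then detected in too few arrays to be tested. Of the 6700 tested probes with no counterpart in the deposited table of the other strains, 1148 (17.1%) were called, against 2009 (20%) of the 10056 that have one.

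**Figure D1:**
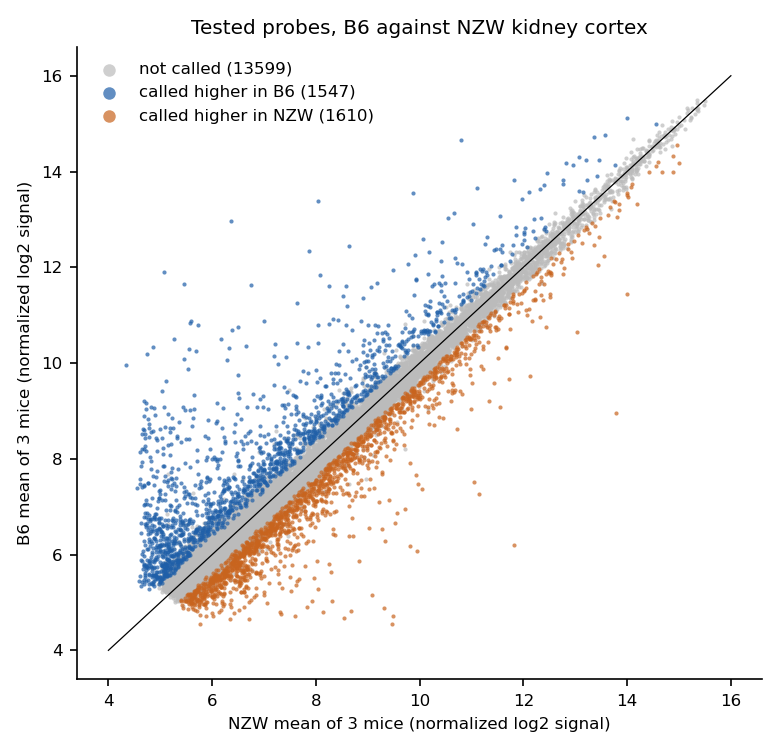
Mean normalized log2 signal of each tested probe in 3 NZW mice (horizontal) against 3 B6 mice (vertical), with the line of equality. The 1547 probes called higher in B6 reach farther from the line than the 1610 called higher in NZW, most of all at the left edge, where the NZW signal is at background.

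Below, each difference is B6 minus NZW on the log2 scale with its standard error from limma (n = 3 mice a strain), and each adjusted p is that of limma over all tested probes. Among genes detected in all 6 mice, Bdh2, a cytosolic dehydrogenase of short-chain hydroxy acids, had the largest difference toward B6. It read 13.02, 12.86, and 13.02 in the B6 mice and 5.86, 6.26, and 6.98 in the NZW mice, a difference of 6.6 ± 0.25 (adjusted p = 4.53e-07). All B6 mice lay far above all NZW mice, in which the probe was dim but detected. Gdi2, which recycles Rab proteins of vesicle traffic, read 13.40, 13.36, and 13.37 in B6 and 7.77, 8.0, and 8.33 in NZW (5.34 ± 0.15, adjusted p = 1.03e-07). Bat5, now named Abhd16a, a lipase gene of the MHC region, read 10.84, 10.94, and 10.71 and 5.45, 5.57, and 5.70 (5.26 ± 0.12, adjusted p = 9.89e-08). Rpl29, a protein of the large ribosomal subunit, read 10.34, 10.23, and 10.28 and 5.31, 5.40, and 5.93 (4.74 ± 0.17). Cops8, a subunit of the COP9 signalosome, and Atp4a, the catalytic subunit of a proton pump, differed by 4.62 ± 0.13 and 4.32 ± 0.11, and both tested probes of Atp4a were called. Bdh2, Gdi2, Bat5, Rpl29, and Cops8 each had only 1 tested probe, so no other probe could repeat them. For Fnip1, Tomm22, and Sestd1 the probes of 1 gene did not give 1 answer. Fnip1, a partner of folliculin, differed by 5.29 at 1 probe and by 0.13 at the other. Tomm22, a receptor of the mitochondrial import pore, differed by 5.07 at 1 probe, while its other probe was called higher in NZW at -0.53. Sestd1 had 3 tested probes, with differences from -0.01 to 4.57.

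Toward NZW, the largest difference at genes detected in all mice was at Angptl7, a secreted protein of the angiopoietin-like family. It read 5.81, 6.38, and 6.38 in the B6 mice and 12.02, 11.70, and 11.72 in the NZW mice (-5.62 ± 0.18, adjusted p = 1.79e-07). Hsd3b2, which belongs to the steroid-modifying 3-beta-hydroxysteroid dehydrogenases, read 7.13, 7.09, and 7.55 and 11.33, 11.04, and 11.04 (-3.88 ± 0.15, adjusted p = 6.18e-07), and both of its probes were called. It is a member of a family of close paralogs, and which of them a probe reads was not tested. Rnase4, a secreted ribonuclease, read 6.05, 5.74, and 5.84 and 8.77, 8.99, and 8.70 (-2.95 ± 0.13), again with both probes called. Rnase1, another secreted ribonuclease, was detected in every NZW mouse and no B6 mouse. Cabp2, a calcium-binding protein, differed by -3.65 ± 0.14, Hddc3 by -2.68 ± 0.14, the lipid kinase gene Pik3c2g by -2.45 ± 0.11, and Wdfy1 by -2.48 ± 0.12 at 1 probe and -0.68, not called, at the other. Hbb-b2, an adult beta-globin whose alleles differ between inbred strains, read 6.47, 5.65, and 6.08 in B6 and 10.56, 9.77, and 9.55 in NZW (-3.89 ± 0.28). The brightest probe of its neighbour Hbb-b1 differed by 0.11 ± 0.18 and was not called, while 3 of the 10 tested probes with that symbol were called higher in B6. The erythroid enzyme gene Alas2 differed by -0.03 ± 0.39 and was not called.

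Some probes were read in every mouse of 1 strain and in no mouse of the other. There were 360 such probes toward B6 (2.15% of those tested) and 132 toward NZW (0.788%). For these a fold is only a lower bound, set against the lowest detected signal of each array. The bound was at least 2-fold at 139 probes toward B6 and 28 toward NZW. Among the called ones its median was 1.84-fold toward B6 and 1.44-fold toward NZW. The undetected strain lies at background, where spread can be compressed, as for Fcer1g (SD 0.0177 in NZW against 0.3277 in B6). The adjusted p of such a probe therefore does not measure the spread of expression between mice of that strain, and it is not printed. Fcer1g, the gamma chain through which Fc receptors signal, read 10.39, 9.82, and 10.38 in B6 and 4.73, 4.76, and 4.76, below detection, in NZW. It was at least 29.2-fold higher in B6. Ammecr1l read 9.40, 10.41, and 10.05 in B6 and 4.34, 4.34, and 4.33 in NZW, at least 24.8-fold higher. Nudt6 and Nudt1, of which the second clears oxidized nucleotides, were at least 17-fold and 14.2-fold higher in B6. Spink8, a protease inhibitor of the Kazal type, was at least 14.8-fold higher, Ddah2, which degrades methylated arginine, at least 13.6-fold, St7l at least 13.5-fold with both probes called, and Folh1, a glutamate carboxypeptidase of the brush border, at least 11.9-fold. Prdx2, a peroxiredoxin, was at least 13.3-fold higher at 1 probe, but another of its 3 probes differed by -0.17. Gpr116, now Adgrf5, was at least 11.4-fold higher at 1 probe and differed by -0.08 at the other.

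Fewer genes were read in NZW mice alone, and the bounds were smaller. Serpina6, the corticosteroid-binding globulin of plasma, read 4.54, 4.57, and 4.54, below detection, in B6 and 9.07, 9.98, and 9.37 in NZW, at least 18.2-fold higher. The potassium channel gene Kcnc4 was at least 7.23-fold higher in NZW, Rnase1 at least 3.4-fold, and the collagen gene Col23a1 at least 3.3-fold. Ttc15, now Trappc12, was at least 4.08-fold higher at 1 probe and differed by 0.22 toward B6 at the other.

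How far the probes of a gene repeat each other was counted over all calls. The 71 probes with a call of at least 2 log2 units toward B6 and a sister probe for the same symbol had 106 such sisters, of which 54 (50.9%) were called the same way and 6 the opposite way. Toward NZW, 10 such probes had 14 sisters, of which 9 (64.3%) were called the same way and 1 the opposite way. A large difference at a single probe was thus repeated by about as many sister probes as not. Some genes had 3 or more probes that were all called in 1 direction. Toward B6 those with the largest median over their probes were Srxn1 (median 2.79), Serpina1b (2.21), Rpl21 (2.13), Klk1b5 (1.40), and Rapgef5 (1.15). Toward NZW they were the uridine phosphorylase gene Upp2 (-1.33), Snurf (-1.22), the thyroxine deiodinase gene Dio1 (-1.22), the cyclin gene Ccnd1 (-1.12), and Acot7 (-0.97), an acyl-CoA thioesterase. At the brightest probe of Acot7 the call was lost without B6 mouse 1 (-0.64), B6 mouse 2 (-0.60), or NZW mouse 1 (-0.59).

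Groups of genes were then read from 45 lists of pathways and cell types. The lists with the highest share of called members were the serpins (64.7%), the kallikrein and renin-angiotensin genes (63.2%), B cell genes (60% of only 5 tested), complement (47.6%), and amino acid and sugar carriers (46.7%). The lowest, apart from the sex-linked genes, were the respiratory chain (3.1%), basement membrane (5.9%), and proteasome (8.0%). All of these stand beside the 18.8% called over all genes.

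**Figure D2:**
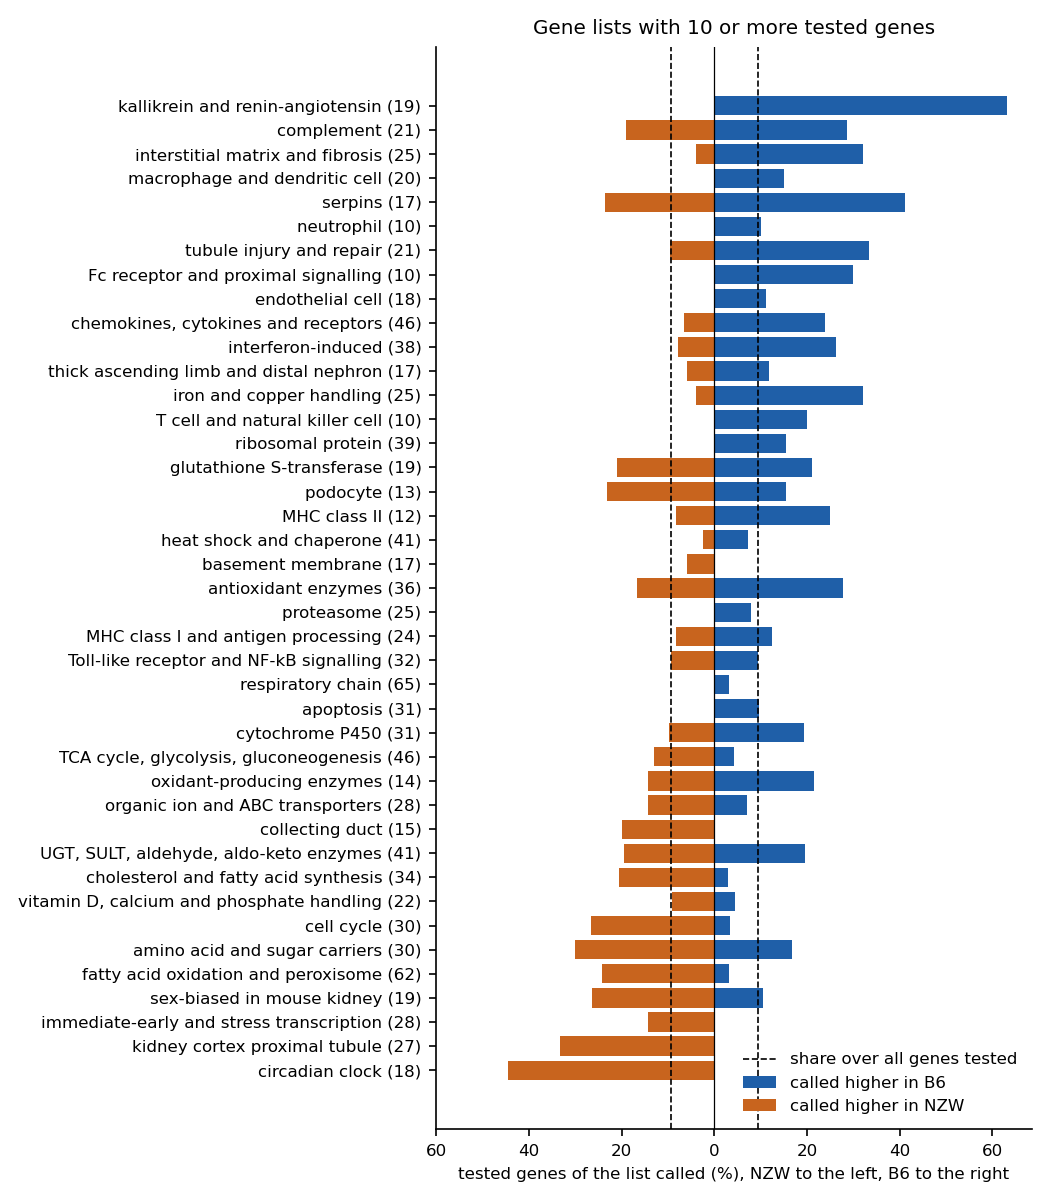
Share of the tested genes of each list that were called, toward NZW on the left and toward B6 on the right, ordered by the median log2 difference, with the number tested in brackets. Dashed lines mark the shares over all genes tested, 9.3% and 9.46%. Clock and proximal tubule genes have calls toward NZW alone, and kallikrein genes toward B6 alone.

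Most of the tested kallikrein genes and the angiotensin precursor were called higher in B6. Kallikreins are serine proteases of the distal tubule, of which tissue kallikrein (Klk1) releases kinins that widen vessels, and the angiotensin system opposes them. Of 19 tested genes of this list, 12 were called, all higher in B6, and none was called higher in NZW, with a median difference of 0.99 against -0.03 over all genes tested. Klk1 itself read 14.14, 14.21, and 14.39 in B6 and 13.06, 13.28, and 13.31 in NZW (1.03 ± 0.12, adjusted p = 4.89e-04), and both probes were called. Klk1b5 read 13.77, 13.98, and 14.17 and 12.27, 12.47, and 12.61 (1.52 ± 0.14), and all 4 of its probes were called. Klk1b9 and Klk1b8 differed by 2.45 ± 0.15 and 2.09 ± 0.22, and Klk1b24 by 1.63 ± 0.17, with a second probe at 0.38 that was not called. The Klk1b genes are near-identical copies in 1 cluster, so their probes can share transcripts and they do not count as separate genes with certainty. Agt, which encodes angiotensinogen, read 8.54, 8.71, and 8.50 in B6 and 4.74, 4.97, and 4.88, below detection, in NZW, at least 9.56-fold higher. The renin gene Ren1 differed by 0.29 ± 0.11, not called, at its brightest probe and by 0.71, called, at its second probe. Between 9 and 13 of the list were called when a mouse was left out.

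The serpins, inhibitors of serine proteases, were called in both directions, 7 higher in B6 and 4 higher in NZW of 17, with 4 higher in B6 without B6 mouse 1 or 2. Serpina1b, Serpina1d, and Serpina1a, copies of the gene for alpha-1-antitrypsin, were higher in B6. Serpina1b read 11.41, 10.75, and 10.25 in B6 and 8.50, 8.47, and 8.75 in NZW (2.23 ± 0.26, adjusted p = 4.44e-04), Serpina1d differed by 1.42 ± 0.22, and Serpina1a was at least 1.81-fold higher. Serpina3n, an acute-phase serpin, read 9.30, 9.66, and 7.42 and 6.05, 5.72, and 6.52 (2.70 ± 0.51, adjusted p = 0.00716), with B6 mouse 3 well below the other B6 mice. Its call was lost with a variance model that downweights outlying genes (adjusted p = 0.0596). Toward NZW were Serpina6, described above, the thyroxine-binding globulin gene Serpina7 (-1.38 ± 0.22), Serpinf2, which encodes the inhibitor of plasmin (-0.63 ± 0.12), and Serpinb1a (-0.57 ± 0.13), whose call was lost without B6 mouse 2 (-0.56) or 3 (-0.54).

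**Figure D3:**
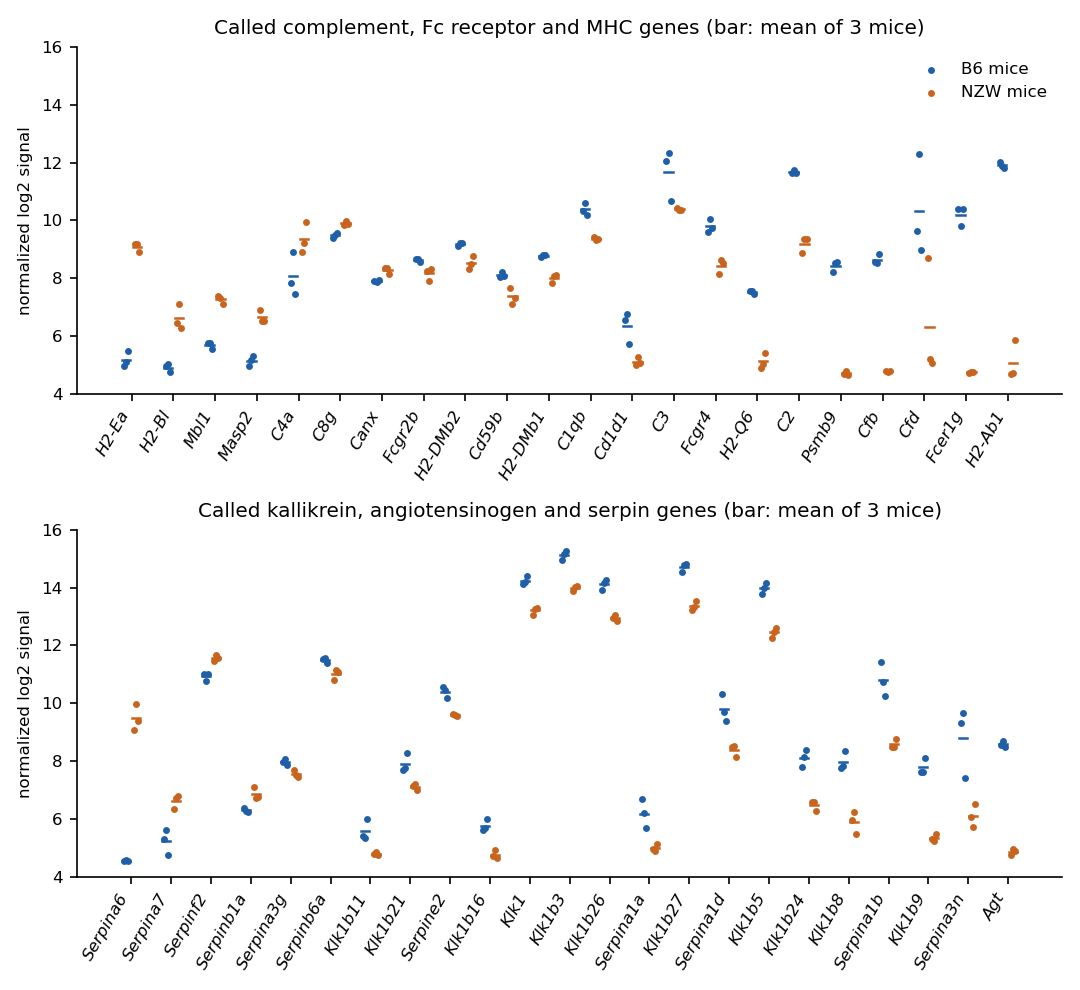
Normalized log2 signal of each mouse (points) and the mean of each strain (bars) for called complement, Fc receptor, and MHC genes (top) and for called kallikrein, angiotensinogen, and serpin genes (bottom), ordered by the difference. Agt, Fcer1g, Cfb, and Psmb9 were near 5 in all NZW mice, whereas Serpina6 was near 5 in all B6 mice.

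Complement, the plasma cascade that anti-GBM antibodies set off in the glomerulus, was called in both directions, 6 of 21 genes higher in B6 and 4 higher in NZW, with a median difference of 0.47. With a mouse left out, 3 to 7 were called higher in B6 (3 without B6 mouse 1 or 2) and 1 to 3 higher in NZW (1 without NZW mouse 2 or 3). Among the genes called higher in B6 were some of the alternative and classical pathways. Cfb, factor B of the alternative pathway, read 8.56, 8.54, and 8.82 in B6 and 4.79, 4.75, and 4.80, below detection, in NZW, at least 9.95-fold higher. C2, the matching protease of the classical pathway, read 11.63, 11.75, and 11.64 and 8.85, 9.34, and 9.37 (2.49 ± 0.15, adjusted p = 8.17e-06). C1qb, a chain of the recognition molecule of the classical pathway that macrophages make, differed by 1.02 ± 0.13. C3, on which all pathways meet, read 12.06, 12.32, and 10.66 in B6 and 10.41, 10.37, and 10.36 in NZW (1.30 ± 0.37, adjusted p = 0.0411), and its call was lost without B6 mouse 1 (1.11), without B6 mouse 2 (0.99), or without any of the NZW mice (1.29 to 1.32). A variance model that downweights outlying genes ended the calls of C3, Cfd, and C4a (adjusted p = 0.155, 0.163, and 0.141). Cfd, factor D, which fat cells make in quantity, read 9.63, 12.31, and 8.97 and 8.69, 5.21, and 5.06 (3.99 ± 1.08). Its highest value was in B6 mouse 2, the mouse with Adipoq at 9.21 against 5.28 to 6.50 in the others, and it was lower, 2.98 with adjusted p = 0.0925, without that mouse, and also not called without B6 mouse 1 (4.33), NZW mouse 2 (3.41), or NZW mouse 3 (3.37). The part of fat tissue in the Cfd value was not tested. Among those called higher in NZW were 2 of the lectin pathway. Mbl1, a mannose-binding lectin, read 5.74, 5.76, and 5.55 in B6 and 7.39, 7.30, and 7.12 in NZW (-1.58 ± 0.12, adjusted p = 3.07e-05). Masp2, the protease that lectins activate, was at least 2.57-fold higher in NZW. C4a, of the C4 genes, differed by -1.30 ± 0.38 at its brightest probe, and this call was lost without B6 mouse 1 (-1.20), B6 mouse 3 (-1.0), or any NZW mouse (-1.53 to -1.01).

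Fc receptors, which bind the antibodies on the filter, had 3 called genes of 10, all higher in B6. Without any B6 mouse 1 was called higher in B6, since Fcer1g was then detected in too few arrays to be tested, and without B6 mouse 2 another gene was called higher in NZW. Beside the Fcer1g chain, Fcgr4, a receptor for IgG of mouse monocytes and neutrophils that pairs with that chain, read 9.61, 10.04, and 9.72 in B6 and 8.15, 8.64, and 8.52 in NZW (1.35 ± 0.17, adjusted p = 6.31e-04). Fcgr2b, the inhibitory receptor, differed by 0.46 ± 0.13, a call lost when any mouse but NZW mouse 3 was left out (0.32 to 0.50) and under 75th percentile scaling (0.36). The 26 macrophage and dendritic cell genes on the array had summed signals of 14485, 17206, and 13081 in the B6 mice. In the NZW mice these were 10477, 10986, and 12074, and all lay below the B6 mice. Without Fcer1g and C1qb, the 24 others summed to 11881, 14770, and 10628 in the B6 mice. In the NZW mice these 24 summed to 9803, 10355, and 11433, and the strains overlapped. Itgam, Itgax, Cd163, Msr1, Marco, and Ccr2 were detected in no mouse, and Emr1 differed by 0.49 ± 0.15 without a call. Of the 20 tested genes, 3 (15%, against 18.8% of all genes) were called, all higher in B6 (Fcer1g, C1qb, and Ly86). The median of the list was 0.44. The part of these cells in the Fc receptor and complement values was not tested.

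MHC class II genes, which present peptides to helper T cells, differed at single genes and not as a class, with 3 of 12 called higher in B6, 1 higher in NZW, and a median of 0.03 that became -0.07 under 75th percentile scaling. H2-Ab1, the beta chain of the I-A molecule, read 12.03, 11.88, and 11.82 in B6 and 4.68, 4.70, and 5.84 in NZW (6.84 ± 0.28, adjusted p = 8.39e-07), and its second probe, at 4.33, was called too. It was detected in 1 of the NZW mice. This gene is among the most polymorphic of the mouse. H2-Ea, the alpha chain of the I-E molecule, went the other way, at 4.94, 5.10, and 5.46 in B6, where 1 mouse detected it, and 9.16, 9.18, and 8.90 in NZW (-3.91 ± 0.16, adjusted p = 6.24e-07). Mice of the b haplotype, to which B6 belongs, are known to lack I-E. H2-DMb1 and H2-DMb2, which load peptides, differed by 0.78 ± 0.11 and 0.67 ± 0.13. Of 24 MHC class I and antigen processing genes, 3 were called higher in B6 and 2 higher in NZW. The share called was 20.8%, near the 18.8% of all genes. The median of -0.03 became 0.01 under cyclic loess. Without any B6 mouse, 1 was called each way. Psmb9, a catalytic subunit of the immunoproteasome, read 8.22, 8.53, and 8.55 in B6 and 4.69, 4.79, and 4.66, below detection, in NZW, at least 8.63-fold higher. H2-Q6 differed by 2.39 ± 0.14 with both probes called, whereas H2-Bl was at least 2.5-fold and H2-Q5 at least 2.19-fold higher in NZW, the last with a second probe at -0.01. Class I genes share long stretches of sequence, and which of them each probe reads was not tested.

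Interferon-induced genes were called higher in B6 more than in NZW, 10 against 3 of 38, with a median of 0.19. Gbp6, a guanylate-binding GTPase of antimicrobial defence, read 7.72, 7.84, and 7.89 in B6 and 6.12, 6.15, and 6.01 in NZW (1.72 ± 0.11, adjusted p = 8.40e-06). Xdh, xanthine oxidoreductase, which makes urate and can make superoxide, read 9.25, 9.56, and 9.32 and 6.34, 6.89, and 6.26 (2.88 ± 0.18, adjusted p = 9.35e-06). Trim30 was at least 1.99-fold higher, and Ifitm2, which blocks viral entry, was higher in NZW at both probes (-0.62 ± 0.11). The antiviral sensors Eif2ak2 and Ddx58 read lower in B6 by 0.47 and 0.47, calls that were lost without B6 mouse 1 (-0.37 and -0.49), B6 mouse 3 (-0.50 and -0.40), or NZW mouse 3 (-0.45 and -0.44), and for Eif2ak2 also without NZW mouse 2 (-0.45). The other tested probe of Ddx58 differed by 0.0005 and was not called. The list was not uniform, since most of its tested genes were not called.

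Of 46 chemokine, cytokine, and receptor genes, 11 were called higher in B6 and 3 higher in NZW, with a median of 0.19. Il6st, the shared signalling chain of the interleukin-6 family, read 7.75, 7.89, and 7.90 in B6 and 4.64, 4.55, and 4.70, below detection, in NZW, at least 5.76-fold higher. Il10ra, the receptor of the inhibitory cytokine interleukin-10, was at least 2.54-fold higher in B6. Cxcl1, which draws neutrophils, read 9.71, 9.29, and 8.88 and 8.33, 7.70, and 8.25 (1.2 ± 0.23, adjusted p = 0.00803). Toward NZW were Il17rb (-0.82 ± 0.11), Il15 (-0.66 ± 0.14), and Csf1, the growth factor of macrophages (-1.01 ± 0.23), of which the Csf1 call was lost without B6 mouse 3 (-0.81) or NZW mouse 3 (-1.02). Without B6 mouse 1 or 2, 4 of these genes were called higher in B6. In the Toll-like receptor and NF-kB list, 3 of 32 genes were called in each direction. The share called, 18.8%, was that of all genes tested. Without B6 mouse 1 or 2, 1 gene of this list was called higher in B6. Ly96, the partner of Toll-like receptor 4, was higher in B6 (1.25 ± 0.11) and Nfkbib, an inhibitor of NF-kB, higher in NZW (-2.19 ± 0.21).

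Some genes of the circadian clock were higher in NZW and none was called higher in B6. The clock is a feedback loop in which the factors Clock and Arntl bind E-boxes (CACGTG) and switch on Per, Cry, and Nr1d genes, whose proteins then repress them, so these transcripts rise and fall over the day. Of 18 tested clock genes, 8 were called higher in NZW and none higher in B6, with a median of -0.47. The count was 7 to 10 when a mouse was left out and 8 to 11 under the other normalizations, background settings, and variance model. Gm129, now Ciart, a repressor of Clock and Arntl, read 5.51, 5.45, and 5.16 in B6 and 7.93, 7.29, and 7.63 in NZW (-2.24 ± 0.17, adjusted p = 4.07e-05). Per1 read 6.21, 6.08, and 5.95 and 7.93, 7.22, and 7.72 (-1.54 ± 0.18, adjusted p = 5.02e-04), with no overlap of the strains. Dbp, an output factor of the loop, read 11.12, 11.38, and 11.46 and 12.32, 12.33, and 12.50 (-1.06 ± 0.12, adjusted p = 4.89e-04). Nr1d1, the repressor of Arntl, differed by -0.89 ± 0.12, Per2 by -0.83 ± 0.11, Cry2 by -0.81 ± 0.16, Usp2, a deubiquitinase, by -0.80 ± 0.10 with all 3 probes called, and Tef, a relative of Dbp, by -0.43 ± 0.11. The Tef call, at 1 of 3 probes, was lost without any B6 mouse (-0.46 to -0.37) or without NZW mouse 3 (-0.39). The other 10 did not pass the test. Clock and Arntl themselves differed by 0.24 ± 0.15 and -0.15 ± 0.20, and neither was called. Npas2, Per3, and Nr1d2 were among the other genes not called.

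The promoters of the called clock genes were read in RefSeq (build GRCm38.p6), 250 bases before to 50 after the start, and searched for CACGTG, which reads the same on both strands. Windows were given for 7 of the 8 genes, and 3 of those genes held the motif (Ciart, Per1, and Tef). Some of the genes have more than 1 window, and by window 4 of 9 held it, against 7.15% of all 32851 promoter windows. Clock genes are known for this motif, and those not called were not searched, so the share says nothing of the strain difference. The windows of Ciart and Per1 are shown because these genes had the largest differences, with the motif in capitals. The Ciart window (chr3:95882179-95882478, minus strand) holds 3 motifs, which begin at -116, -58, and -44 from the start, and the first Per1 window (chr11:69098699-69098998, plus strand) holds 1, at -166. The windows of Dbp, Nr1d1, Cry2, and Usp2 do not hold these letters, which says nothing of the rest of those genes.
Ciart: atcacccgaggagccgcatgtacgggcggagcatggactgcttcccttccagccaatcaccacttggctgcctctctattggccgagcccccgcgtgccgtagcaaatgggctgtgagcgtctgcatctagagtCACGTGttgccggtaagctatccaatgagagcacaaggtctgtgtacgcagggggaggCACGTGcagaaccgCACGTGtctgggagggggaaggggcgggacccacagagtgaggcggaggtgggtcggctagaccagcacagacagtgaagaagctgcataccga
Per1: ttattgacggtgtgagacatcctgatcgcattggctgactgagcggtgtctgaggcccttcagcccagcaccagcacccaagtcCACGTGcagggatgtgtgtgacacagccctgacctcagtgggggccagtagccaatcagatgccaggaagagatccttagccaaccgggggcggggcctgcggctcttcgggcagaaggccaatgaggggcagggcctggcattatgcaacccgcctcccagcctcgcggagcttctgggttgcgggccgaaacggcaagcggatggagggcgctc

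**Figure D4:**
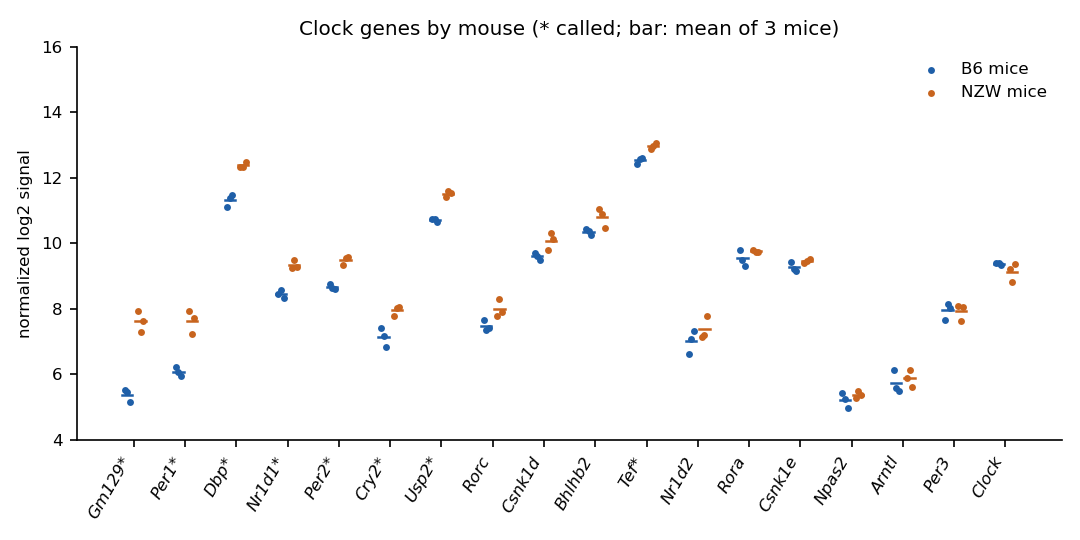
Normalized log2 signal of each mouse (points) and the mean of each strain (bars) for the 18 tested clock genes, ordered by the difference, with called genes starred. The 8 called genes lie higher in the NZW mice, Gm129 farthest, while the points of Per3 lie together.

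Antioxidant enzymes were called in both directions, 10 of 36 higher in B6 and 6 higher in NZW, with a median of -0.02 that became 0.03 under cyclic loess, but the largest differences were toward B6. Without a B6 mouse, 2 or 3 were called higher in NZW and 6 to 8 higher in B6. Glrx1, glutaredoxin, which reduces proteins bound to glutathione, read 11.69, 11.63, and 11.57 in B6 and 6.76, 6.98, and 6.51 in NZW (4.88 ± 0.13, adjusted p = 1.03e-07). Srxn1, sulfiredoxin, which repairs peroxiredoxins, read 10.49, 10.54, and 10.22 and 7.57, 7.67, and 7.64 (2.79 ± 0.12, adjusted p = 9.49e-07), and its 3 probes differed by 1.47 to 3.38. Prdx1, the peroxiredoxin it repairs, read 14.27, 14.27, and 14.38 and 13.12, 13.02, and 13.08 (1.23 ± 0.10, adjusted p = 5.28e-05). Oxr1 differed by 2.33 ± 0.22 at 1 probe and 0.01 at the other. Toward NZW, Blvrb, a biliverdin reductase, differed by -0.98 ± 0.12, the extracellular superoxide dismutase Sod3 by -0.71 ± 0.15, and Gss, glutathione synthetase, by -0.61 ± 0.11 at its brightest probe, while another Gss probe was called higher in B6. The Sod3 call was lost without B6 mouse 1 (-0.63) or 2 (-0.70).

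Glutathione S-transferases, which attach glutathione to toxins and peroxides, had 4 genes of 19 called each way, with a median of 0.04 that became -0.15 under 75th percentile scaling. Mgst1, the membrane-bound enzyme, read 11.67, 11.75, and 11.55 in B6 and 5.27, 5.23, and 5.86 in NZW (6.20 ± 0.17, adjusted p = 1.08e-07), and 2 NZW mice detected it. Gstm2, with which the study is concerned, was higher in B6 at both probes, by 0.67 ± 0.10 and 1.27. Gstm7 read 6.46, 6.10, and 6.58 in B6 and 8.49, 8.91, and 8.53 in NZW (-2.26 ± 0.17, adjusted p = 2.76e-05), and Gstm6 differed by -1.29 ± 0.12 at 1 probe of 3. Gsta2 was called higher in NZW at its brightest probe (-2.57 ± 0.14) and higher in B6 at the other (0.70). The enzymes of each class are paralogs of close sequence, and cross-hybridization between them was not tested.

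Enzymes that make oxidants were few and mixed, 3 of 14 higher in B6 and 2 higher in NZW. Maob, monoamine oxidase B, read 8.99, 8.99, and 8.81 in B6 and 5.31, 4.87, and 5.26 in NZW (3.78 ± 0.14, adjusted p = 4.43e-07), with detection in 1 NZW mouse. Nosip, which binds nitric oxide synthases, was higher in NZW at both probes (-1.11 ± 0.11).

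Drug and steroid metabolism differed gene by gene. Of 31 cytochrome P450 genes, 6 were called higher in B6 and 3 higher in NZW. Cyp2c44, now Cyp2c23, an epoxygenase of arachidonic acid in the kidney, read 10.73, 10.74, and 10.95 in B6 and 8.14, 8.11, and 8.49 in NZW (2.56 ± 0.14, adjusted p = 3.75e-06), and the steroid hydroxylases Cyp2a4 and Cyp2d9 differed by 2.48 ± 0.25 and 1.72 ± 0.15. Cyp3a13 read 5.76, 5.15, and 4.96 and 7.98, 8.21, and 7.93 (-2.75 ± 0.20), higher in NZW at both probes. Of 41 conjugating, aldehyde, and aldo-keto enzymes, 8 were called each way, and 4 higher in B6 without B6 mouse 1 or 2. Fmo1, a flavin monooxygenase, was at least 7.08-fold higher in B6 and Aldh1a7 at least 4.24-fold. The carbonyl reductases Cbr3 and Cbr1 differed by 2.89 ± 0.16 and 1.53 ± 0.11. Ugt1a7c, a glucuronosyltransferase, was higher in B6 at both probes (2.11 ± 0.16). Toward NZW were Akr1c18, which inactivates progesterone (-1.96 ± 0.32), the retinal dehydrogenase gene Aldh1a1 (-1.70 ± 0.17), and Aldh1b1, at least 2.86-fold higher.

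Markers of tubule injury did not move as 1 group. Of 21 tested genes, 7 were called higher in B6 and 2 higher in NZW. Havcr1, kidney injury molecule 1, which injured proximal tubule cells make, read 7.92, 7.54, and 5.40 in B6 and 10.27, 9.05, and 9.85 in NZW (-2.77 ± 0.60, adjusted p = 0.0134), and all NZW mice lay above all B6 mice. Its call was lost without NZW mouse 1 (-2.48) or 3 (-2.71) and with the variance model that downweights outlying genes (adjusted p = 0.0934). Lcn2, the lipocalin NGAL, went the other way, at 12.29, 12.35, and 10.55 in B6 and 10.40, 9.38, and 10.01 in NZW (1.80 ± 0.46, adjusted p = 0.0285). Timp1, an inhibitor of matrix proteases, read 8.23, 8.80, and 6.80 and 5.92, 5.88, and 6.46 (1.86 ± 0.44). Fga, the fibrinogen alpha chain, differed by 0.97 ± 0.22. In Lcn2, Timp1, and Fga, B6 mouse 3 was lower than the other B6 mice. The Lcn2 call was lost without B6 mouse 1 (1.52) or 2 (1.5) or NZW mouse 2 (1.52) or 3 (1.84), that of Timp1 without B6 mouse 1 (1.72) or NZW mouse 1 (1.76) or 2 (1.74), and that of Fga without B6 mouse 1 (0.86) or 2 (0.81) or NZW mouse 1 (0.98) or 3 (0.88). The same variance model ended the calls of Lcn2 (adjusted p = 0.135) and Timp1 (adjusted p = 0.0813). Without B6 mouse 2, 3 genes of this list were called higher in B6, and across the mice left out the count ran from 1 (without B6 mouse 1) to 8 (without B6 mouse 3). With Lcn2, the 14 neutrophil genes on the array had summed signals of 6645, 13323, and 7827 in the B6 mice. In the NZW mice these were 4174, 4440, and 4675, and all lay below the B6 mice. Without Lcn2, the 13 others summed to 1638, 8113, and 6340 in the B6 mice. In the NZW mice these 13 summed to 2834, 3788, and 3660, and the strains overlapped. The part of neutrophils in the Lcn2 values was not tested. Il8rb, Mmp8, and Fpr1 were detected in no mouse.

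Of 25 genes of the interstitial matrix, 8 were called higher in B6 and 1 higher in NZW, and the others did not pass the test, with a median of 0.45. Ctgf, now Ccn2, a matrix protein that TGF-beta induces, read 10.88, 11.02, and 10.73 in B6 and 8.98, 9.0, and 8.62 in NZW (2.01 ± 0.14, adjusted p = 1.91e-05). Acta2, smooth muscle actin, read 11.56, 11.61, and 11.06 and 10.66, 10.28, and 10.45 (0.95 ± 0.17, adjusted p = 0.0056), though its 2 other probes were not called. Col1a1, the chief fibrillar collagen, read 7.95, 9.05, and 6.94 and 6.57, 6.61, and 6.28 (1.49 ± 0.43). Its call was lost without B6 mouse 1 (1.51) or 2 (0.96) or any of the NZW mice (1.39 to 1.54) and with that variance model (adjusted p = 0.138), and the count of the list toward B6 was 2 without B6 mouse 1, 4 without B6 mouse 2, 11 without B6 mouse 3, and 3 to 6 without an NZW mouse. Ltbp1 was higher in NZW at its brightest probe (-0.73 ± 0.13). In the basement membrane list, which holds the antigen of the antibodies, 1 of 17 genes was called. Col4a4, a chain of the type IV collagen of the mature glomerular filter, was higher in NZW (-0.89 ± 0.14, adjusted p = 0.00291).

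**Figure D5:**
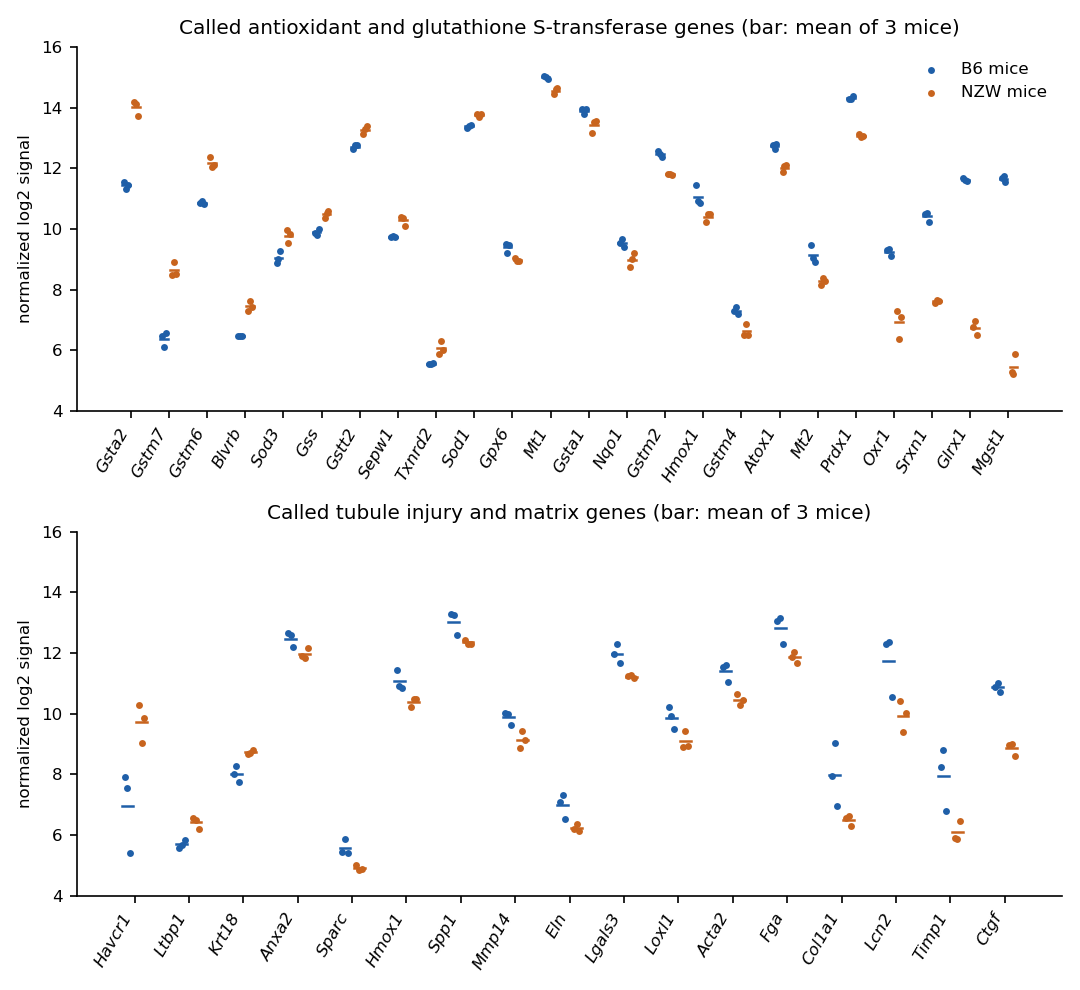
Normalized log2 signal of each mouse (points) and the mean of each strain (bars) for called antioxidant and glutathione S-transferase genes (top) and called tubule injury and matrix genes (bottom), ordered by the difference. Glrx1, Srxn1, and Mgst1 separate the strains by far more than the spread of the mice, while in Lcn2, Timp1, and Col1a1 the B6 mice are spread widely.

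Genes of the proximal tubule were called in NZW alone, 9 of 27 higher in NZW and none higher in B6, with a median of -0.26. With a mouse left out, 6 to 7 were called higher in NZW. The 30 proximal tubule genes on the array had summed signals of 185178, 187582, and 203337 in the B6 mice. In the NZW mice these were 230876, 235314, and 240348, without overlap of the strains. Slc5a12, a lactate carrier of the brush border, read 9.68, 9.79, and 10.17 in B6 and 11.31, 10.89, and 11.47 in NZW (-1.35 ± 0.18, adjusted p = 0.00118). Anpep, the brush border aminopeptidase, read 9.73, 9.85, and 10.04 and 11.03, 10.91, and 10.98 (-1.10 ± 0.11, adjusted p = 2.51e-04). Slc6a19, the main carrier of neutral amino acids, differed by -0.88 ± 0.13 with both probes called. The defining genes Slc34a1, Lrp2, Slc5a2, and Kap were not called at their brightest probes, with differences of -0.22 ± 0.12, -0.16 ± 0.12, -0.18 ± 0.11, and -0.21 ± 0.24, though a dimmer Lrp2 probe was called at -1.16. Miox, the remaining defining gene, was called higher in NZW (-0.41 ± 0.11), a call lost when any mouse but NZW mouse 1 was left out (-0.47 to -0.36) and under cyclic loess (-0.36). Under 75th percentile scaling the median of the list was -0.44 and under cyclic loess -0.22. Amino acid and sugar carriers were called 9 times toward NZW and 5 times toward B6 of 30, but 1 was called toward B6 without B6 mouse 1 or 2, and 6 to 10 toward NZW with a mouse left out. They were led by Slc5a12, the inositol carrier Slc5a11 (-1.24 ± 0.12), and Slc1a4 (-1.10 ± 0.11) on one side and Slc7a8, a basolateral exchanger, on the other (0.98 ± 0.14, with a second probe at 0.10). In the distal nephron, Slc12a3, the thiazide-sensitive carrier of the distal convoluted tubule, was called higher in B6 (13.28, 13.50, and 13.53 against 12.03, 12.14, and 11.76, 1.46 ± 0.13) at its brightest probe, with its 3 other probes at 0.77 (called), 0.13, and -0.14, while Pvalb, parvalbumin, of the same segment, was higher in NZW (10.40, 10.32, and 11.24 against 12.95, 13.14, and 13, -2.38 ± 0.23, adjusted p = 1.51e-04).

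Fatty acid oxidation and peroxisome genes had the same lean, 15 of 62 higher in NZW and 2 higher in B6, with a median of -0.24. Ppara, the nuclear receptor that switches on this programme, read 8.60, 8.08, and 8.25 in B6 and 9.19, 9.97, and 9.47 in NZW (-1.23 ± 0.21, adjusted p = 0.00426). The peroxisomal oxidases Dao1 and Hao3 differed by -1.55 ± 0.16 and -1.43 ± 0.15, and Decr2, a peroxisomal reductase, by -1.07 ± 0.17 with both probes called. Acot12, a cytosolic acetyl-CoA thioesterase, stood out in the other direction, at 10.42, 10.50, and 10.29 in B6 and 7.21, 7.22, and 7.23 in NZW (3.18 ± 0.10, adjusted p = 2.08e-07). With a mouse left out, 6 to 12 genes were called toward NZW (6 without B6 mouse 1 or 2) and 1 or 2 toward B6. Cholesterol and fatty acid synthesis had 7 of 34 called higher in NZW and 1 higher in B6, led by Cyp51, which demethylates lanosterol (-1.07 ± 0.17, both probes), and 4 were called higher in NZW and none higher in B6 without B6 mouse 2. In central carbon metabolism, 6 of 46 were called higher in NZW and 2 higher in B6, but 3 and 1 without any B6 mouse. The shares called were 23.5% for cholesterol and fatty acid synthesis and 17.4% for central carbon metabolism. Over all genes, 18.8% were called, 9.3% of them higher in NZW by the count of all genes tested. Idh1, cytosolic isocitrate dehydrogenase, a source of NADPH, read 13.54, 13.72, and 13.71 in B6 and 11.08, 11.15, and 11.09 in NZW (2.55 ± 0.10, adjusted p = 6.99e-07), with both probes called. Of 65 respiratory chain genes, 2 were called, of which Cox7a2 differed by 3.54 ± 0.13, and 1 without any B6 mouse.

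Of 30 cell cycle genes, 8 were called higher in NZW and 1 higher in B6, and the others did not pass the test, with a median of -0.20. Tk1, thymidine kinase of the S phase, read 5.73, 6.16, and 5.68 in B6 and 6.96, 7.37, and 6.85 in NZW (-1.20 ± 0.18, adjusted p = 0.00193), with both probes called. Ccnd1, cyclin D1, read 12.21, 12.40, and 12.34 and 12.89, 12.85, and 13.01 (-0.60 ± 0.11, adjusted p = 0.0054), and all 5 probes were called, at -1.45 to -0.60. Rrm2, a subunit of ribonucleotide reductase, differed by -0.73 ± 0.16 (-0.68, not called, without B6 mouse 3), whereas its partner Rrm1 was higher in B6 (0.95 ± 0.10). The count of the list toward NZW was 3 to 5 with a mouse left out (3 without B6 mouse 3 and 4 without B6 mouse 2), nearer to the 9.3% of all genes. Immediate-early and stress factors had 4 of 28 called (14.3%), all higher in NZW, against 9.3% of all genes called higher in NZW. They were led by Cebpd (-0.92 ± 0.16) and Jun (-0.78 ± 0.15). Among 31 apoptosis genes, 3 were called higher in B6 (9.7%), near the 9.46% of all genes, and of these Casp1 differed by 0.86 ± 0.15.

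Lymphocyte genes were dim. Of 20 T cell and natural killer cell genes on the array, 9 were detected in no mouse. Of 10 tested genes, 2 (20%, against 18.8% of all genes) were called, both higher in B6 (Nkg7 and Ccl5). None was called without B6 mouse 2 (0.63 and 0.54, adjusted p = 0.0647 and 0.054), and Nkg7 was not called without B6 mouse 1 (0.67). The 16 B cell and plasma cell genes on the array had summed signals of 10579, 10372, and 9346 in the B6 mice. In the NZW mice these were 7910, 8256, and 8580, without overlap of the strains. Of these 16 genes, 11 were detected in no mouse, Ms4a1 and Cd22 among them. All the same, Igh-6, the heavy chain of IgM, read 8.45, 10.26, and 9.27 in B6 and 7.27, 7.82, and 7.60 in NZW (1.76 ± 0.39, adjusted p = 0.0144), a call lost without NZW mouse 1 (1.61) and with the variance model that downweights outlying genes (adjusted p = 0.0745). Ighg was at least 2.53-fold higher in B6. Of the 3 genes of this list called, 1 was called without B6 mouse 2. Immunoglobulin constant regions differ between strains, and what these probes read in each was not tested. Podocyte genes were called in both directions (2 higher in B6 and 3 higher in NZW of 13, but 1 and 1 without B6 mouse 2). The endothelial list had 2 calls of 18 (11.1%), both higher in B6, near the 9.46% of all genes, with 1 call without B6 mouse 2. They were led by Ehd3, a glomerular endothelial gene, at 8.52, 8.51, and 8.72 in B6 and 6.71, 6.77, and 6.72 in NZW (1.85 ± 0.11, adjusted p = 6.08e-06).

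Metal handling genes were called mostly toward B6, and the few ribosomal genes called were all higher in B6. Iron and copper genes were called 8 times toward B6 and 1 time toward NZW of 25, with 4 toward B6 without B6 mouse 1 and 6 without B6 mouse 2. Atp7a, the copper pump, differed by 2.00 ± 0.15 at 1 probe and 0.33 at the other, the copper chaperone Atox1 by 0.71 ± 0.11, and the metallothionein Mt2 by 0.86 ± 0.15. Of 39 ribosomal protein genes, 6 were called (15.4%), all higher in B6, with a count of 3 without B6 mouse 2. Over all genes, 9.46% were called higher in B6 and 18.8% in either direction. The median of the ribosomal list was 0.09, which became -0.10 under 75th percentile scaling. Beside Rpl29, Rpl21 was higher at its 3 probes (8.36, 8.33, and 8.45 against 6.10, 6.33, and 6.34, 2.12 ± 0.11) and Rps3a differed by 1.07 ± 0.12. Ribosomal protein genes have many processed copies in the genome that can share a probe. Of 25 proteasome genes, 2 were called, Psmd8 (3.81 ± 0.12, adjusted p = 2.12e-07) and Psmb5 (1.39 ± 0.13), both higher in B6. Of 41 heat shock and chaperone genes, 3 were called higher in B6 and 1 higher in NZW, and of 28 organic ion and ABC transporters, 2 and 4. Without B6 mouse 2 these counts were 1 and 0, and 2 and 2. In the full fit the shares called were 8.0% for the proteasome, 9.8% for the chaperones, and 21.4% for these transporters, against 18.8% of all genes. By the chromosome given in the table, the share of tested probes called ran from 10.6% on X to 22.9% on chromosome 7, which carries the kallikrein and beta-globin clusters.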

How the data were processed

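The values were deposited intensity, the mean bead signal of each probe on Illumina mouse BeadChips read in BeadStudio, with a deposited detection p-value per probe. The authors had not normalized them. The genome build behind the probes, the chip of each array, and any batch are not given in the sources used here. Signals of the 6 arrays were background corrected by normexp, for which the detection p-values stood in for control beads and an offset of 16 was added, then quantile normalized apart from the other arrays and taken to log2 (R 4.3.3, limma 3.58.1). The values of 11 repeated probe IDs were averaged. Probes that 3 or more arrays detected (p up to 0.05) were tested with lmFit and eBayes and Benjamini-Hochberg adjustment over all of them, and the code was tested on simulated data. A gene is given by its brightest tested probe. A fold against an undetected strain is a lower bound. Replicate numbers did not pair the arrays (correlations of deviations 0.01, -0.07, and -0.07). The genes named were the 10 largest calls in each direction among probes detected in all 6 arrays, the 10 largest read in 1 strain alone, up to 4 called members of each list in each direction with the defining markers, the 5 genes each way with 3 or more probes all called, and Gstm2. Per2, Cry2, Usp2, Tef, Clock, Arntl, Npas2, Per3, Nr1d2, Cbr1, and Atox1 were named after their values were seen. The members and the lists were chosen with earlier results of these data known. Alternatives were other normalizations, filters, variance models, a replicate block, the methods' t-test, and each mouse left out. A few genes that the rule names are not reported here.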

Additional observations from a re-analysis of the deposited data

How the results depend on the processing

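None of the 227 calls of named genes changed direction in an alternative run that refitted the gene. Direction was not checked for named genes without a call, or for those named after their values were seen. The t-test and the minimum difference were counted over all probes only. Of 227 calls of named genes, 214 held under 75th percentile scaling, 218 under cyclic loess, 215 with a trended and robust variance, and 202 with no filter. With a mouse left out, 158 to 190 held of the 204 to 216 that could still be tested. The total of 3157 called probes ran from 1737 to 2634 with a mouse left out, 834 to 1400 of them higher in B6 and 903 to 1244 higher in NZW, and the 295 called list members from 185 to 256. Some of these losses come from the construction, since a probe read in 1 strain alone is detected in too few arrays once a mouse of that strain is left out. The replicate block, with 2621 called probes (1362 higher in B6 and 1259 higher in NZW), shared 2496 with the unblocked fit, and 204 named calls held, although the numbers do not pair the mice. The methods' t-test called 4771 probes without adjustment (2086 higher in B6 and 2685 higher in NZW) and 1851 after Benjamini-Hochberg (978 and 873). A minimum difference of 1 log2 unit left 922 (621 and 301). Of the 418 called probes read in 1 strain alone, 156 had a detection p of 0.01 or less in every mouse of that strain. That count has no value when detection in all 6 arrays is required. With 3 mice a strain, differences smaller than the spread between mice were not detectable, and signal near background sets only bounds.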
